A study of Glycine max with 12 samples.

Results

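The genes described here are the leaf-preferred genes of soybean (Glycine max), cultivar Williams 82. A gene model belonged to them when it had at least 10 CPM (its count per 1000000 counts of the library) in leaf and at least 4 times the highest CPM of the other 9 libraries with counts. Counts under 3 in those 9 libraries were set to 3, and Glyma08g08770 and Glyma05g25810 were left out. Of 66210 gene models, 108 (0.163%) met the rule, or 0.621% of the 17393 gene models that reached 10 CPM in leaf. The genes were chosen by their measured leaf CPM and its ratio to the other 9 count libraries, so both are given as a description and neither was tested.

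The series measured polyadenylated RNA by sequencing in 12 libraries, 1 for each stage or organ, all of the same cultivar and, per the labels, grown in a greenhouse. Young trifoliate leaves, roots without nodules and stem internodes came from a mature plant aged 3 to 4 months. Floral buds were still closed, and seedlings were taken whole, 6 days after imbibition. Whole seeds were staged by length, with 0.8 to 1.1 mm for globular, 2 to 2.5 mm for heart and 3 to 3.9 mm for cotyledon embryos. Seeds of 6 to 7 mm stood for early maturation, those of 1.1 to 1.3 cm for the middle and those of 1.2 to 1.5 cm for the late part of maturation, and dry seed closed the series. Each group is 1 library and nothing in the labels gives the number of plants behind it, so there is no spread between replicates and no p-value. The leaf library held 23347386 counts, and the 10 count libraries between 10296612 (stem) and 45726019 (globular seed). Intervals in brackets are exact 95% intervals of counts. They cover counting error only, and leave out differences between plants and between libraries. Reads amplified by PCR are not independent molecules, so the intervals can be too narrow even for counting error.

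The leaf is the main photosynthetic organ of a plant. Its cells hold many chloroplasts, and most chloroplast proteins, among them the light-harvesting and carbon-fixing ones, are encoded in the nucleus. The leaf surface also carries stomata, hairs and a wax cuticle, each made by specialised cells. Whole seedlings and floral buds hold young leaf-like organs too, while roots have few chloroplasts. Soybean descends from an ancient polyploid and keeps many genes as pairs of similar copies. None of the 108 identifiers could be matched to a named gene in the reference table of 59048 genes, so the genes are given by locus identifier and no function is assigned to any of them. The digits before the letter g in an identifier give the chromosome by naming convention. For the same reason the leaf library could not be checked against named leaf markers.

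The leaf levels of the 108 genes ran from 10.2 to 2161 CPM, with a median of 43.3 CPM and quartiles of 21.8 and 110 CPM. For all gene models at 10 CPM or more in leaf the median was 24.7 CPM. Of the 108 genes, 60 lay under 50 CPM, 28 reached 100 CPM and 11 reached 500 CPM. Together they took 1.72% of the leaf counts (1.72 to 1.73%), and the 10 highest took 56.8% of that share. In the other libraries the same genes took 0.288% (seedling), 0.197% (floral bud), 0.0845% (early maturation), 0.0578% (stem), 0.0193% (root) and 0.0187% (dry seed) of the counts. The gap to leaf follows from the choice of the genes. In organs taken whole, fewer cells of a type and less RNA per cell cannot be told apart.

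**Figure D1:**
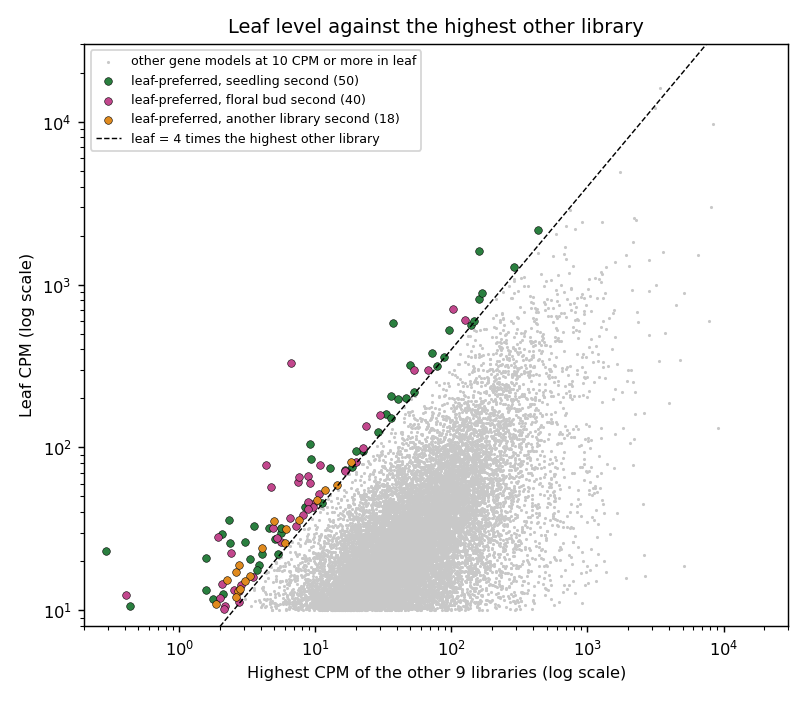
Leaf CPM (vertical, log scale) against the highest CPM of the other 9 count libraries (horizontal, log scale, counts under 3 set to 3) for every gene model at 10 CPM or more in leaf. The 108 leaf-preferred genes are coloured by their second-highest library and lie on or above the dashed line of 4 times, most of them close to it, and the grey point above the line at 16046 CPM is Glyma08g08770, which was left out.

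Most of the genes passed the threshold by little. The ratio of leaf to the highest other library had a median of 5.23, with quartiles of 4.65 and 6.86. It reached 8 in 21 genes (0.121% of the gene models at 10 CPM in leaf), 16 in 5 genes (0.0287%), 32 in 2 genes (0.0115%) and 64 in 1 gene (0.00575%). Among all 17393 gene models at 10 CPM in leaf the median ratio was 0.580, 20.8% had leaf as their highest library and 4.36% had a ratio of at least 2. For 77 of the 108 genes the whole counting interval of the ratio lay above 4. The interval uses the same counts that chose the genes, and only the library picked as highest. It therefore describes counting error and does not test membership. The 3 genes just inside the ratio threshold were Glyma17g06290 (4.04), Glyma12g08650 (4.04) and Glyma04g00420 (4.05), and the nearest outside were Glyma13g40900 (3.99), Glyma08g08850 (3.98) and Glyma15g18810 (3.98). At the level threshold Glyma11g04680 was the lowest gene inside with 10.2 CPM, followed by Glyma12g32200 with 10.6 CPM and Glyma07g11370 with 10.7 CPM. Just outside it, Glyma15g02430 had 9.89 CPM, Glyma14g39040 had 9.72 CPM and Glyma16g31230 had 9.34 CPM. A further 649 gene models at 10 CPM in leaf had ratios of 2 to 4. Of the genes left out by the rule, Glyma08g08770 had 16046 CPM in leaf, 4.67 times its floral bud level, and Glyma05g25810 had 12119 CPM, 3.89 times its floral bud level, which is under the threshold in any case.

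The gene with the highest leaf CPM was Glyma11g34230 on chromosome 11. It had 2161 CPM in leaf, 433 CPM in seedling, 158 CPM in floral bud and 18.6 CPM in stem, then 4.88 CPM in globular, 1.09 in heart, 0.674 in cotyledon and 2.36 in early-maturation seed, 0.186 in dry seed and 0.793 in root. Leaf stood 4.99 times above seedling (4.88 to 5.11), and both stood far above root and the seeds. On chromosome 20, Glyma20g28890 had 1612 CPM in leaf, 159 in seedling and 131 in floral bud. It lay between 9.32 and 17.7 CPM in stem and the first 4 seed stages, at 2.23 CPM in root and at 1.26 CPM in dry seed. Its ratio to seedling was 10.1 (9.77 to 10.5). Among the 12 genes with the highest leaf CPM, only Glyma14g06980 had a larger ratio.

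Glyma12g04150 on chromosome 12 had 1276 CPM in leaf and its next levels in seedling (287 CPM), early-maturation seed (222 CPM) and floral bud (142 CPM). In the 3 younger seed stages it lay at 6.605, 8.81 and 21.5 CPM, so among the 5 seed libraries with counts it was highest at early maturation. Stem held 39.7 CPM of it, dry seed 2.56 and root 1.24. Glyma17g05760 on chromosome 17 had 893 CPM in leaf and 168 CPM in seedling, while floral bud (26.9 CPM) and globular seed (25.3 CPM) were close to each other. It had 16.5 CPM in cotyledon, 10.3 in heart and 6.49 in early-maturation seed, 6.15 in root, 2.04 in stem and 0.418 in dry seed. Glyma10g38910 on chromosome 10 had 814 CPM in leaf, 159 CPM in seedling and 30.3 CPM in floral bud, and between 0.0930 (dry seed) and 2.70 CPM (cotyledon) in the remaining 7 libraries.

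In 4 more of these 12 genes the floral bud level was above the seedling level or within counting error of it. Glyma10g20570 had 703 CPM in leaf, 103 in floral bud, 72.3 in seedling and 29.1 in stem, with 7.54 CPM or less in each seed library and in root, and 0 counts in dry seed. Glyma16g01870 had 605 CPM in leaf, 126 CPM in floral bud, 125 CPM in seedling and 91.3 CPM in stem. Floral bud and seedling did not differ beyond counting error (ratio 1.01, 0.960 to 1.06), and no other of the 108 genes was as high in stem. Glyma07g00330 had 602 CPM in leaf and was also present in globular seed (135 CPM), floral bud (144 CPM), seedling (146 CPM) and root (58.2 CPM), where it was the highest of the 108 genes. It had 1 count in dry seed. Glyma06g11890 had 527 CPM in leaf, 96.0 in seedling and 94.6 in floral bud, 27.5 at early maturation, and 0 counts in dry seed. For both of these genes the seedling and floral bud levels were within counting error of each other.

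Glyma04g00420 on chromosome 4 was present in every count library. It had 562 CPM in leaf, 139 in seedling, 133 at early maturation and 89.4 in floral bud. Its lowest level was 25.4 CPM, in root, and in dry seed it had 92.8 CPM, the highest dry-seed level of the 108 genes. With TMM or DESeq2 scaling dry seed was its next library and it missed the threshold, with ratios of 3.75 and 3.36. In contrast, Glyma18g13840 had 382 CPM in leaf, 71.5 in seedling, 28.5 in stem and 19.4 in floral bud, and no more than 5 counts in root or in any seed library. Levels in CPM compare one gene across libraries. Between genes they also depend on gene length.

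Lengths could be recovered for 81 of the 108 genes (median 1367 nt, against 1814 nt for 13758 gene models at 10 CPM in leaf). Per length, as computed RPKM (reads scaled by gene length and by the reads of the library), the leaf levels of the 81 genes had a median of 35.7 RPKM. Glyma20g28890 was then the highest with 1647 RPKM, ahead of Glyma11g34230 with 1228 RPKM. Glyma12g08650 followed with 1117 RPKM from a recovered length of 285 nt, and Glyma10g38910 (795 RPKM) and Glyma17g05760 (794 RPKM) came next. For 22 of the 81 genes the length rests on a value from 1 maturation library only, though not for the 5 just named. The median recovered length was 1204 nt for these 22 and 1389 nt for the 59 with values from both. Where the true length is a multiple of the recovered one, the computed RPKM is too high by that multiple. The recovered length is then too small, and its part in the lower median length of the leaf-preferred genes was not tested.

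The largest ratios belonged mostly to genes of moderate or low level. Glyma05g09080 on chromosome 5 had 539 counts in leaf (23.1 CPM), 2 counts in seedling and 0 in the other 8 count libraries. It was the only one of the 108 genes under 3 counts everywhere outside leaf. Its ratio was 79.2 with the floor of 3 counts in stem, the shallowest library, and 214 (59.1 to 1776) against the 2 seedling counts. Glyma07g15190 on chromosome 7 combined a high level with a large ratio. It had 328 CPM in leaf, 6.57 in floral bud, 2.96 in seedling, 1.97 in globular seed, 0.583 in stem and 0.198 in root, and 0 counts in heart, cotyledon, early-maturation and dry seed. Leaf was 49.9 times floral bud (43.5 to 57.4).

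Glyma06g00320 (12.4 CPM in leaf, 30.8 times floral bud, 17.7 to 58.6) and Glyma12g32200 (10.6 CPM, 24.6 times seedling, 12.3 to 57.6) followed. Both had under 0.5 CPM in every other count library, and their next library held only 13 and 8 counts. Glyma10g06870 had 78.04 CPM in leaf, 4.31 in floral bud and 3.44 in seedling, with 0 or 1 count in each of the other 7. Glyma14g06980 on chromosome 14 had 578 CPM in leaf, 37.0 in seedling, 2.66 in floral bud, 1.13 at early maturation and 0.317 in cotyledon seed. It had 0 counts in globular, heart and dry seed, in root and in stem. Its ratio to seedling was 15.6 (14.5 to 16.9).

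The next 6 ratios lay between 11.4 and 15.5. Glyma09g07090 had 36.0 CPM in leaf, 2.31 in seedling, 2.14 in stem and 1.46 in floral bud, so 3 organs lay close together below leaf. Glyma13g32380 had 28.0 CPM in leaf, 1.92 in floral bud and 1.51 in seedling. Glyma03g38150 had 29.4 CPM in leaf, 2.05 in seedling and 1.60 at early maturation, and Glyma09g03200 had 20.9 CPM in leaf and 1.56 in seedling. Glyma04g07870 had 57.1 CPM in leaf, 4.71 in floral bud and 3.18 in seedling. Glyma19g37100 had 105 CPM in leaf, 9.20 in seedling and 4.71 in floral bud, and 4.37 CPM in dry seed against 0.318 CPM or less in the 4 younger seed stages.

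Seedling and floral bud were the libraries closest to leaf. Seedling was second-highest for 50 of the 108 genes and floral bud for 40. For 59 genes they were the pair of libraries next to leaf, in either order. That count was not made for other gene models, so it is not known whether it is particular to the leaf-preferred genes. Globular seed was second for 5 genes, early maturation for 4, stem and heart seed for 3 each, root for 2, dry seed for 1 and cotyledon seed for none. Among 3515 other gene models at 10 CPM in leaf with leaf as their highest library, seedling was second for 35.6%, floral bud for 18.8%, globular seed for 14.1% and early maturation for 11.8%. For the leaf-preferred genes the corresponding shares were 46.3%, 37.0%, 4.63% and 3.70%. The second-highest library differed from the one after it beyond counting error in 59 of the 108 genes, and in the other 49 their order was not resolved at this depth. Both libraries were picked by rank from the same counts. The intervals do not allow for this, so 59 can be too many.

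**Figure D2:**
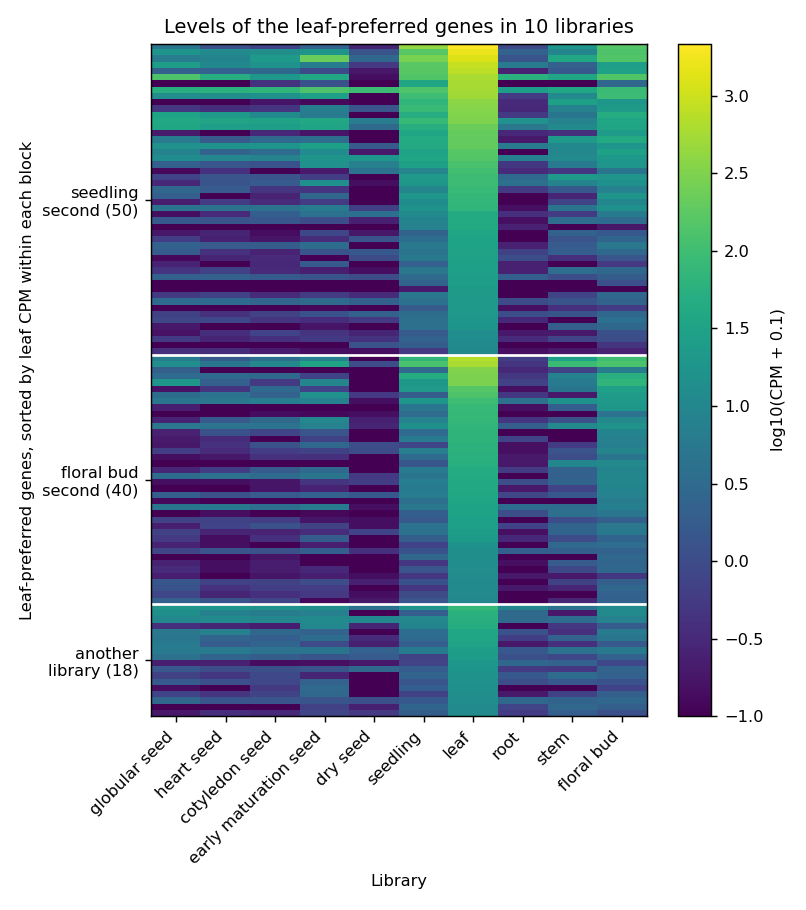
Levels of the 108 leaf-preferred genes (rows) in the 10 count libraries (columns) as log10(CPM + 0.1), in blocks by second-highest library (50 seedling, 40 floral bud, 18 another library) and sorted by leaf CPM within each block. Next to the leaf column the seedling and floral bud columns are the brightest, and root and dry seed are the darkest.

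Relative to each gene's own leaf level, the median was 14.3% in seedling and 13.8% in floral bud, followed by 3.33% in stem, 2.37% at early maturation and 1.72% in globular seed. Cotyledon seed had 1.64%, heart seed 1.16%, root 0.330% and dry seed 0.164%. Over all gene models at 10 CPM in leaf these medians ran from 37.5% (dry seed) to 105% (floral bud), with 78.3% in root. So the order of the libraries put root and dry seed last for the leaf-preferred genes, whereas root was no lower than stem (74.2%) for leaf-expressed genes at large. Of the 108 genes, 43 had 0 counts in dry seed, 24 in root, 21 in heart, 15 in cotyledon, 13 in globular and 11 in early-maturation seed. In stem 14 had 0 counts, in floral bud 1 and in seedling 0. The rule asked for low levels in these libraries, and the share of other gene models at 0 is not given here. At 1 CPM or more in dry seed were 21.3% of the 108 genes, against 79.8% of the other gene models at 10 CPM in leaf. In root these shares were 23.1% and 94.8%. A count of 0 allows up to 3 counts, which is 0.139 CPM in dry seed, 0.149 in root, 0.136 in heart seed and 0.291 in stem. The depth of the stem library therefore limits statements about absence there most.

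**Figure D3:**
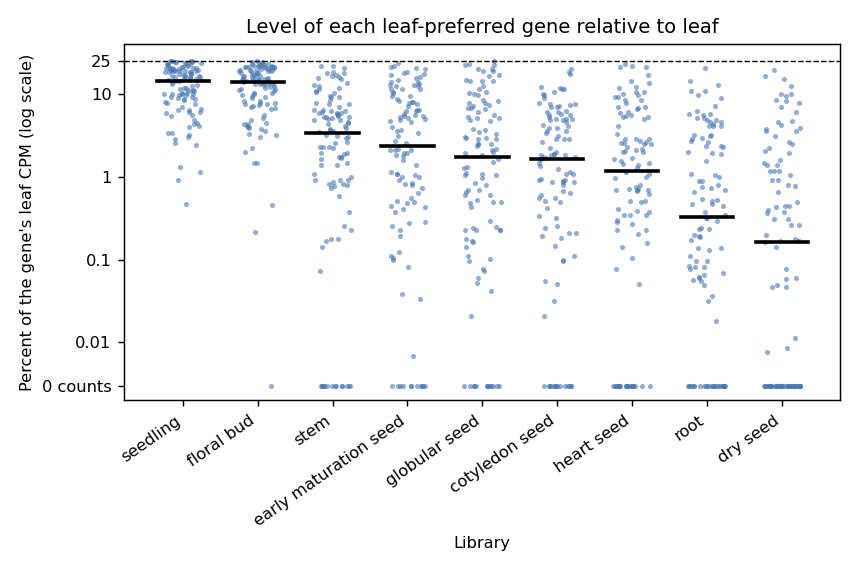
Level of each of the 108 leaf-preferred genes in the other 9 count libraries as a percent of its own leaf CPM (log scale). Points are genes, black bars are medians and the dashed line marks 25%, the highest value the rule allows. The medians run from 14.3% in seedling to 0.164% in dry seed.

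The 50 genes with seedling second had a median leaf level of 75.5 CPM and the 40 with floral bud second a median of 44.3 CPM. The medians in the remaining organs were low in both sets, at 1.75 and 1.31 CPM in stem, 1.15 and 0.602 CPM at early maturation and 0.223 and 0.0991 CPM in root. Over the 108 genes, 71 (65.7%) lay within 2-fold between seedling and floral bud, close to the 68.9% of the 3515 other genes highest in leaf. Of the 108, 8 were at least 4 times higher in seedling and 8 at least 4 times higher in floral bud. In the 3515 other genes highest in leaf the shares beyond 4-fold were 4.18% and 4.27%, against 7.41% and 7.41% here. The widest gap towards seedling was that of Glyma12g10300, with 43.3 CPM in leaf, 8.40 in seedling (156 counts), 3 counts in floral bud, 3 in root and 0 in the other 6 count libraries outside leaf. The widest gap towards floral bud was that of Glyma03g33800, with 135 CPM in leaf, 23.4 in floral bud, 15.2 at early maturation and 1.78 in seedling. Glyma05g32950 (7.41 CPM in floral bud and 0.700 in seedling) and Glyma08g07310 (10.7 and 1.35 CPM) came next. Glyma08g07310 also had 9.61 CPM in stem and 0 counts in all 5 seed count libraries. These 4 genes were chosen after their values were seen.

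For 18 genes the next library was neither seedling nor floral bud. Their leaf levels were 10.9 to 81.3 CPM, so none reached 100 CPM. Glyma08g03750 had 81.3 CPM in leaf, 18.2 in globular seed and 17.8 in seedling, the last 2 within counting error of each other (ratio 1.02, 0.898 to 1.16). Glyma18g04520 had 58.6 CPM in leaf, 14.5 in globular seed, 11.4 in floral bud and 1.88 in seedling. With early maturation second, Glyma15g18380 had 47.3 CPM in leaf, 10.3 at early maturation and 8.83 in seedling. Its early-maturation and seedling levels were also within counting error of each other (ratio 1.17, 0.972 to 1.41). The root came second for Glyma12g32440 (19.0 CPM in leaf, 2.73 in root) and Glyma13g37270 (13.1 and 2.68 CPM). In neither did root differ beyond counting error from the next library. The ratios were 1.22 to stem (0.738 to 2.08) and 1.02 to globular seed (0.726 to 1.42). The dry seed came second for Glyma10g03240 alone, with 17.1 CPM in leaf, 2.60 in dry seed and 2.26 in floral bud. Dry seed and floral bud were within counting error of each other (ratio 1.15, 0.798 to 1.65). With DESeq2 scaling the ratio of leaf to dry seed for Glyma10g03240 was 3.65, under the threshold.

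The genes also differed in how many libraries they reached. At 1 CPM or more, 11 of the 108 genes were present in all 10 count libraries, 30 in 3 libraries or fewer and 3 in leaf alone. Of the other gene models at 10 CPM in leaf, 77.5% reached 1 CPM in all 10 libraries and 0.480% in 3 or fewer. The 3 present in leaf alone were Glyma05g09080, Glyma06g00320 and Glyma12g32200. The 11 present everywhere included Glyma20g28890, Glyma12g04150 and Glyma04g00420. In seeds, 10 genes had under 3 counts in each of the 5 seed count libraries, against 0.213% of all gene models at 10 CPM in leaf. The rule already asked for low levels in the other count libraries. These contrasts are therefore related to the choice of the genes and were not tested.

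The seed library with a leaf-preferred gene's highest seed level was compared over the 5 seed libraries with counts. Among the 98 genes with at least 3 counts in some seed count library, early maturation was the highest seed library for 38 (38.8%), globular for 34 (34.7%), dry seed for 10 (10.2%), heart for 9 (9.18%) and cotyledon for 7 (7.14%). For 17258 other gene models at 10 CPM in leaf the shares were 18.6% for early maturation, 30.1% for globular, 21.8% for dry seed, 18.8% for heart and 10.6% for cotyledon. The share at early maturation was thus the larger one among the leaf-preferred genes, those at heart, cotyledon and dry seed were smaller, and the globular share lay close to that of the other genes. No test of these differences was made, because genes are not replicates. Over the leaf-preferred genes the median seed levels ran from 0.0697 (dry seed) to 1.13 CPM (early maturation). For all gene models at 10 CPM in leaf they ran from 10.6 to 26.4 CPM. A highest stage can therefore rest on few counts, and whether its lead exceeded counting error was not tested. The 3 counts were reached at the lowest CPM in globular (0.0656) and early-maturation seed (0.0785). Dry seed had a TMM factor of 0.591, and the shares were not recomputed with other scaling.

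The mid- and late-maturation libraries were not used to choose the genes. The authors deposited RPKM for them, from another set of gene models in part, and only for genes above 0. Of the 108 genes, 77 were listed at mid maturation and 68 at late maturation, 61 in both and 24 in neither. Of all gene models at 10 CPM in leaf, 90.7% and 89.4% were listed, and of all gene models 51.6% and 50%. At 1 RPKM or more there were 32 of the 108 genes (29.6%) at mid maturation and 19 (17.6%) at late maturation, against 80.8% and 70.7% of all gene models at 10 CPM in leaf and 33.6% and 29.7% of all gene models. Low values here are related to the rule, which already asked for low levels at the other seed stages. The median over the genes listed was 0.690 RPKM at mid and 0.231 RPKM at late maturation, against 4.79 and 5.62 RPKM. Of the 61 genes listed in both, 42 were lower at late than at mid maturation, with a median log2 ratio of -0.80. For 15492 gene models at 10 CPM in leaf and listed in both, 46.6% were lower and the median was 0.15. Of the 24 genes listed in neither, 16 had counts at early maturation. A gene can be missing from these lists because its model was changed, and this cannot be told apart from absence.

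**Figure D4:**
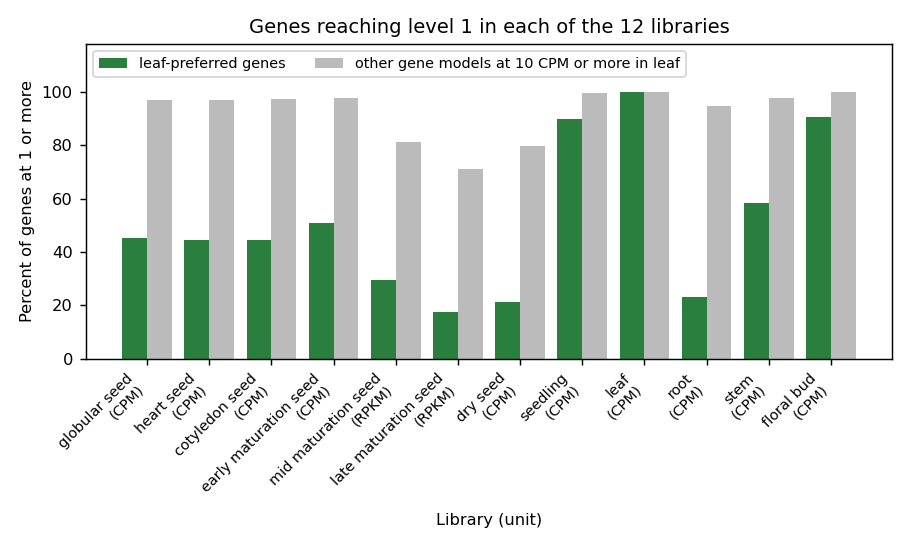
Percent of genes at 1 CPM or more (10 count libraries) or 1 RPKM or more (mid and late maturation) for the 108 leaf-preferred genes (green) and the other gene models at 10 CPM or more in leaf (grey). The green bars are lowest at late maturation (17.6%), dry seed (21.3%) and root (23.1%), and the grey bars stay above 70%. Low green bars in the count libraries are related to the rule, which asked for low levels there.

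At mid and late maturation 3 genes stood out against their own leaf level. For the 81 genes with a length, leaf RPKM was computed from counts and set beside the deposited values, a comparison in which the organ and the processing cannot be told apart. In 78 of them leaf was at least 4 times each maturation library that listed the gene, with a median ratio of 65.0 over all 81. Over the 59 genes whose length came from both libraries these values were 56 genes and a median ratio of 40.4. A length recovered too small makes the ratio too high. Glyma16g00670 on chromosome 16 (1490 nt) went the other way, with 8.42 RPKM in leaf, 18.02 at mid and 15.6 at late maturation. In the count libraries it had 0.299 RPKM at early maturation, 0.218 in dry seed and 1.41 in seedling, so both neighbouring stages were low. It was the only one of the 81 genes higher in a maturation library than in leaf. Glyma15g18380 had 31.0 RPKM in leaf, 6.77 at early, 12.7 at mid and 0.0570 at late maturation and 0.122 in dry seed. Glyma17g06290 had 27.1 RPKM in leaf, 2.37 at early, 3.77 at mid and 10.2 at late maturation and 2.19 in dry seed.

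The highest deposited values among the 108 genes were those of Glyma12g04150, with 79.1 RPKM at mid and 11.7 at late maturation, and Glyma04g00420, with 16.7 and 65.8 RPKM. Glyma12g04150 was thus higher at mid than at late maturation, and Glyma04g00420 the reverse. No length was recovered for either, so no leaf RPKM could be set beside them.

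The leaf-preferred genes were spread over 19 of the 20 chromosomes. Chromosome 7 held 11, chromosome 10 held 9, chromosomes 12 and 17 held 8 each, and chromosome 14 held 7. Chromosome 2 held 1 of them among its 1016 gene models at 10 CPM in leaf, and chromosome 1 held none among 712. As a share of such gene models, chromosome 7 had 1.23% and chromosome 14 had 1.07%, against 0.621% over the genome.

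In identifier order, none of the 108 genes had another of them as its direct neighbour. Under the same rule 29 of 485 root-preferred genes (5.98%, with 0.733% of all gene models root-preferred), 26 of 210 stem-preferred genes (12.4%, with 0.317% stem-preferred), 23 of 197 seedling-preferred genes (11.7%, with 0.298%) and 12 of 379 floral bud-preferred genes (3.17%, with 0.572%) had one. The chance of a preferred neighbour grows with the number of preferred genes, and no test of the difference was made. Within 5 identifiers there was 1 pair of leaf-preferred genes, Glyma12g31250 and Glyma12g31280 on chromosome 12. Glyma12g31250 had 25.9 CPM in leaf, 2.37 in seedling, 1.02 in floral bud and 0 counts in the other 7 libraries. Glyma12g31280 had 74.9 CPM in leaf, 12.8 in seedling, 9.57 in floral bud, 0.680 in stem and 0 counts in root and dry seed. Between them lay Glyma12g31260, with 0 counts in leaf.

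The 108 genes had 216 neighbouring places in identifier order, held by 215 gene models because Glyma12g31260 lies beside 2 of the 108 genes. The median leaf level over these places was 1.35 CPM, against 3.34 CPM beside the other gene models at 10 CPM in leaf. At 1 CPM or more in leaf were 52.3%, against 60.2%, and at 10 CPM or more 32.9%, against 34.8%. Among the 216, 23 (10.6%) were at 10 CPM with leaf as their highest library, against 7.30%, and 8 (3.70%) were also at least 2 times the next library, against 1.52%. At distances of 2 to 5 identifiers on either side the share with leaf highest lay between 2.78% and 9.35%, from 3 to 10 genes at each distance, and between 6.33% and 6.97% around the other gene models.

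Some neighbours, chosen after their values were seen, had the same kind of profile as the leaf-preferred gene beside them. Next to Glyma14g06980, Glyma14g06990 had 627 CPM in leaf, 200 in seedling, 10.9 in floral bud and 3.98 at early maturation. Like Glyma14g06980 it had 0 counts in globular, heart and dry seed, root and stem, and its ratio of leaf to seedling was 3.13. Glyma14g39030, with 65.4 CPM in leaf, 7.53 in floral bud and 5.92 in seedling, lay between Glyma14g39020 and Glyma14g39040. Glyma14g39020 had 934 counts in leaf, 13.3 CPM in seedling and 12.9 in floral bud, a ratio of 3.01. Glyma14g39040 had 9.72 CPM in leaf, 0.558 in floral bud and 0.269 in seedling, a ratio of 17.4 that missed the rule by its level alone. Glyma09g03190, beside Glyma09g03200, had 6.04 CPM in leaf and 0.431 CPM in seedling, a ratio of 14.0. Where such neighbours are near-identical copies, the division of reads between them is uncertain, because how multiply matching reads were counted is not given in the sources used here.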

How the data were processed

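Reads were single-end and 76 bp long, per the labels' protocols, and Bowtie and, for mid and late maturation, also bedtools are named in the submitters' processing notes. The sources used here do not give versions, genome build, annotation or strand handling. Mid and late maturation were deposited apart, in another unit and partly other gene models (8608 of 44202 identifiers are not in the count tables), and were sequenced in part on another instrument model per the labels. For 10 libraries the authors deposited the raw count of mapped reads per gene model, and for mid and late maturation RPKM of genes above 0. CPM was computed here as a count divided by the column total times 1000000. The members, the rule and the comparisons were chosen with earlier results of these data known. Ratios carry exact Clopper-Pearson 95% intervals of the conditional binomial. The rule was tested on simulated counts, and so was the recovery of lengths.

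The depth behind the deposited RPKM was recovered from the 1500 lowest values of each library, of which 87.4% (mid, 59542387 reads) and 91.1% (late, 103601188 reads) were single reads of whole-number length within 0.03. Lengths were the smallest, between 76 and 20000 nt, at which the deposited RPKM gave whole reads, in both libraries for 59 of the 108 genes and in the only library listing the gene for 22.

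Named were the 12 genes with the highest leaf CPM, the 12 with the largest ratio, the 3 highest at mid or late maturation, the 3 nearest to each threshold on either side and the 2 left out. Runs of adjacent members were to be named as well and there were none. Genes singled out by their second-highest library, the pairs close together and neighbours were added after seeing values. Alternatives used TMM factors (edgeR 4.0.16) and DESeq2 1.42.0 size factors in R 4.3.3. Tables were handled with pandas 2.3.3 and numpy 2.4.6 and intervals with scipy 1.17.1, under Python 3.11.15.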

Additional observations from a re-analysis of the deposited data

How the results depend on the processing

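The count of leaf-preferred genes, 108 under the rule, depended on the thresholds and on 2 libraries. A minimum of 1 CPM gave 191 genes and one of 50 CPM gave 48, and a ratio of at least 2 gave 756 and one of at least 8 gave 21. Without the seedling library 459 genes passed, and without floral bud 242. Leaving out any one of the other 7 libraries gave 108 to 130. TMM factors gave 169, of which 106 were among the 108, and DESeq2 size factors 148, of which 105 were. Glyma04g00420 and Glyma07g12970 were lost under both scalings, with ratios to dry seed of 3.75 and 3.20 (TMM) and 3.36 and 2.87 (DESeq2), and Glyma10g03240 under DESeq2 (3.65). With the floor of 3 counts lowered so that only a count of 0 was raised, to 1, the same 108 genes passed.

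The median ratio of 5.23 became 2.61 at a ratio of at least 2 and 12.1 at one of at least 8, as these settings choose the genes by it. The sets differ in size, so a changed count need not mean a changed share. Genes with an adjacent member, 0 of 108 under the rule, numbered 2 of 169 with TMM factors, 8 of 191 at 1 CPM and 36 of 756 at a ratio of 2. Within 5 identifiers they numbered 2 of 108. Stem was second for 3 of 108 genes under the rule. It was second for 7 of 169 under TMM factors, 7 of 148 under DESeq2 size factors and 7 of 191 at 1 CPM. At a ratio of 2 it was second for 8 of 756, and for 0 at 50 CPM or at a ratio of 8. Floral bud was second for 40 of 108 genes under the rule. It was second for 71 of 191 at 1 CPM, 18 of 48 at 50 CPM, 197 of 756 at a ratio of 2 and 8 of 21 at a ratio of 8. Seedling, a result added after seeing the data, was second for 50 of 108 genes under the rule. It was second for 27 of 48 at 50 CPM, 383 of 756 at a ratio of 2 and 13 of 21 at a ratio of 8. In each it stayed ahead of floral bud.

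Genes at 1 RPKM at mid maturation numbered 32 of 108 under the rule. They were 55 of 169 with TMM factors, 20 of 48 at 50 CPM, 433 of 756 at a ratio of 2 and 4 of 21 at a ratio of 8. At late maturation they were 12 of 48 at 50 CPM, 332 of 756 at a ratio of 2 and 4 of 21 at a ratio of 8, against 19 of 108. A minimum of 0.1 RPKM gave 61 and 39 genes, and one of 5 RPKM gave 9 and 7. In stem, the shallowest library, levels below 0.291 CPM could not be told from 0. No paired analysis was possible because each group has 1 library.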
